A study of Mus musculus with 15 samples.

Results

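The 7 genes described here encode the core of the mouse inflammasomes and were chosen by name. They are the sensors Nlrp3, Nlrc4 and Aim2, the adaptor Pycard, the inflammatory caspases Casp1 and Casp4, and the pore-forming effector Gsdmd. All 7 were among the 20145 genes named by a probe of the array and among the 13390 genes tested, and the probes of all 7 were well above background on all 15 arrays.

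RNA was measured on one-colour Agilent arrays in liver macrophages of male mice, sorted as strongly F4/80-positive cells. The WT_SD group (below, wildtype) held CD11c-negative cells of wildtype mice on standard diet, whose age the labels do not state. The 2 other groups came from MC4R-KO mice, which lack the melanocortin 4 receptor and had non-alcoholic steatohepatitis (NASH) after eating Western diet for 20 weeks from 8 weeks of age. They held the CD11c-negative and the CD11c-positive cells of those livers (below, NASH CD11c-negative and NASH CD11c-positive). Each group had 5 arrays, and the RNA of a sample was pooled from 7 to 9 mice. Genotype, diet and disease differed together between wildtype and NASH cells, so their parts cannot be told apart. Between NASH CD11c-positive and wildtype cells the sorted CD11c fraction differed as well. Whether the ages differed cannot be told from the labels. Nothing in the labels says that the 5 samples of a group came from separate pools, so the p-values cover no more than the variation among these arrays, and part or all of it may be technical.

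An inflammasome is a complex of the cytosol that assembles when a sensor meets a sign of infection or damage. NLRP3 responds to many disturbances such as crystals and potassium efflux, NLRC4 to bacterial proteins bound by NAIP proteins, and AIM2 to cytosolic DNA. The adaptor ASC, the product of Pycard, joins sensors to caspase-1, which cleaves interleukin-1 beta, interleukin-18 and gasdermin D. Mouse Casp4 encodes caspase-11, which binds cytosolic lipopolysaccharide and also cleaves gasdermin D, whose fragment then forms pores in the plasma membrane. In the liver, Kupffer cells and recruited macrophages are main carriers of this pathway, and its activity has been studied as a driver of steatohepatitis.

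The arrays lay on 2 slides, each holding all 3 groups. Slide 1 held wildtype replicates 1 to 3, NASH CD11c-negative replicates 1 to 3 and NASH CD11c-positive replicates 1 and 2, and slide 2 held the others. The 75th percentile of the processed signal of an array, to which values are scaled, lay between 358.6 and 562.4 units. It differed by group, at 399.3 to 444.6 in wildtype, 358.6 to 403.6 in NASH CD11c-negative and 477.6 to 562.4 in NASH CD11c-positive cells. On each slide the groups did not overlap in it. Of the spots 45.8% to 58.02% were well above background. Itgax, which encodes CD11c, had mean log2 levels of 4.21 in wildtype, 5.93 in NASH CD11c-negative and 7.29 in NASH CD11c-positive cells. The probe for Mc4r was not above background on any array, so it checks nothing. Adgre1, which encodes F4/80, was well above background on all arrays.

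Levels are given as log2 of the signal relative to the 75th percentile of the array, so that 0 is that percentile. Differences are those of group means on this scale, with the standard error (SE) of limma, and a gene passed when its p, adjusted by Benjamini-Hochberg across the 13390 tested genes, was under 0.05. Levels of different probes were not compared with each other. The groups differed widely across the genome. The median difference of all genes was 0.134 between NASH CD11c-negative and wildtype cells, 0.015 between NASH CD11c-positive and NASH CD11c-negative cells and 0.165 between NASH CD11c-positive and wildtype cells.

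Against wildtype cells, NASH CD11c-negative cells had higher Pycard, Casp4 and Gsdmd and lower Aim2 and Casp1, while Nlrc4 and the brighter probe of Nlrp3 did not pass. Gsdmd turned to lower there under quantile normalization (-0.11). These were 5 of 7 genes called, beside 76.8% of all genes, 48.3% as higher and 28.5% as lower. NASH CD11c-positive cells had lower Casp1, Casp4 and Gsdmd than NASH CD11c-negative cells and no higher member, where 53.1% of all genes were called, 23.2% as lower and 29.9% as higher. Against wildtype cells they had higher Pycard and Nlrc4 and lower Casp1 and Aim2, where 77.6% of all genes were called, 51.4% as higher and 26.3% as lower. None of the 7 genes changed 2-fold or more in any comparison. A 2-fold rise or fall was called for 5.18% and 6.22% of all genes in the first comparison, 1.66% and 1.19% in the second and 6.65% and 7.02% in the last. The first and last comparisons share the wildtype arrays, and each NASH group enters 2 comparisons. In bulk samples such as these, fewer cells of a type and less RNA per cell cannot be told apart.

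**Figure D1:**
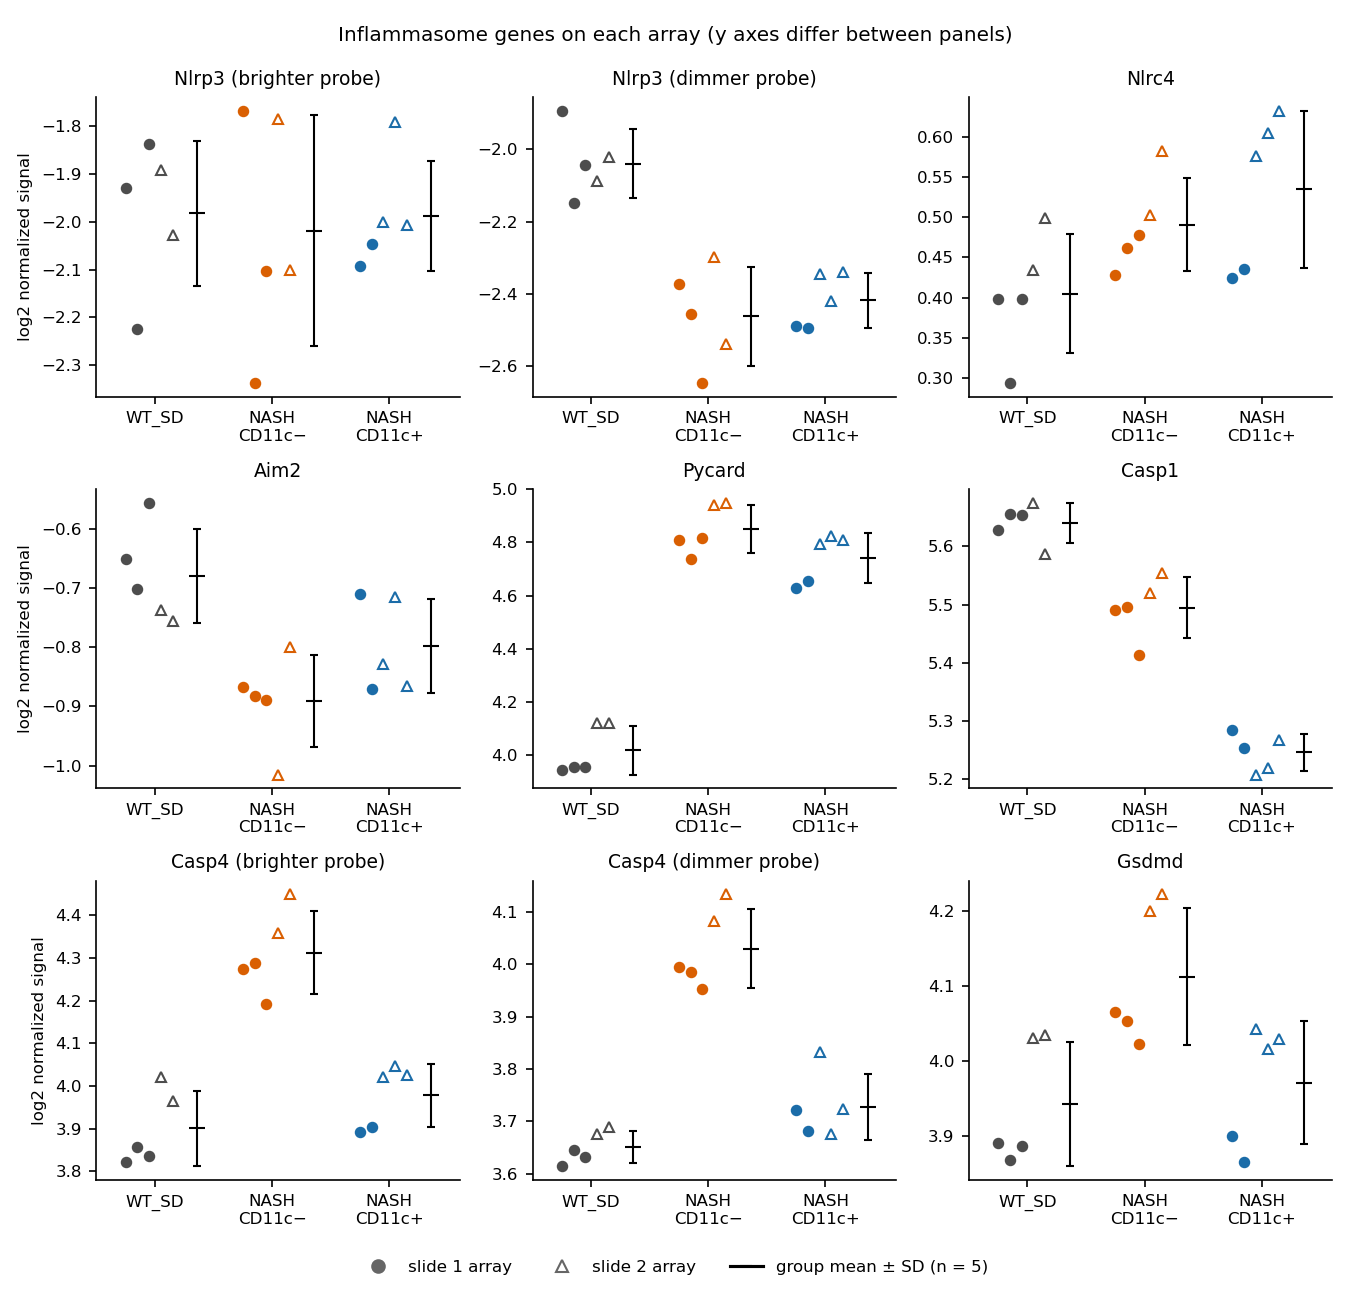
Log2 normalized signal (y axis, scaled separately in each panel) of the 7 inflammasome genes on the 15 arrays, by group (x axis), with both probes of Nlrp3 and Casp4. Filled circles are arrays of slide 1, open triangles arrays of slide 2, and bars give the group mean ± SD over 5 arrays. Pycard was higher on all NASH arrays than on any wildtype array, Casp1 fell in steps without overlap, and both Casp4 probes peaked in NASH CD11c-negative cells.

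Pycard was higher in both NASH groups, and at the 75th percentile scaling it had the largest difference from wildtype of the 7 genes. Under quantile normalization Casp1 differed more in both groups (-0.54 and -0.74, against 0.51 and 0.44 for Pycard). At the 75th percentile scaling the levels of Pycard in wildtype replicates 1 to 5 were 3.95, 3.96, 3.96, 4.12 and 4.12. In NASH CD11c-negative cells they were 4.81, 4.74, 4.82, 4.94 and 4.95, and in NASH CD11c-positive cells 4.63, 4.66, 4.795, 4.83 and 4.81. Every NASH array lay above every wildtype array, whereas the ranges of the NASH groups overlapped. The group means were 4.02 ± 0.092 (SD, n = 5) in wildtype, 4.85 ± 0.091 in NASH CD11c-negative and 4.74 ± 0.093 in NASH CD11c-positive cells. Pycard rose 1.78-fold in NASH CD11c-negative cells (0.83 ± 0.057, SE; adjusted p = 5.08e-09, limma) and 1.65-fold in NASH CD11c-positive cells (0.72 ± 0.057, adjusted p = 2.17e-08, limma) against wildtype. The groups did not overlap for 64.1% of all genes in the first of these comparisons and 69.3% in the other.

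Between the NASH groups Pycard differed by -0.11 ± 0.057, which did not pass (adjusted p = 0.126, limma, 95% interval -0.23 to 0.014). Its level was 0.16 ± 0.014 higher on slide 2 than on slide 1 (adjusted p = 3.22e-06, limma). With slide as a block the difference between the NASH groups was -0.14 ± 0.017 and passed (adjusted p = 7.81e-06, limma), with 62.5% of all genes called. Within slide 1 it was -0.147 and within slide 2 it was -0.135, and the groups did not overlap on either slide. NASH CD11c-negative cells thus had the higher Pycard level on each slide, by a small amount. A slide held only 2 or 3 arrays per group, so a lack of overlap within a slide says little. The share of all genes without overlap within a slide was not computed.

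The inflammatory caspases are described next beside their promoters and that of Pycard, since Casp1 and Casp4 are direct neighbours on chromosome 9 and went opposite ways in NASH CD11c-negative cells. Promoter windows run from 250 bases before to 50 bases after the start site and are from RefSeq (GRCm38.p6), written 5′ to 3′ on the strand of the gene. Such windows were found for 6 of the 7 genes. They were searched on both strands for the NF-kB consensus (by name), an interferon-stimulated response element core GAAANNGAA, the gamma-activated site TTCNNNGAA, the PU.1 site GAGGAAGT and the TATA box TATAAA. Capitals mark the matches.
Pycard, chr7:127993818-127994117, minus strand: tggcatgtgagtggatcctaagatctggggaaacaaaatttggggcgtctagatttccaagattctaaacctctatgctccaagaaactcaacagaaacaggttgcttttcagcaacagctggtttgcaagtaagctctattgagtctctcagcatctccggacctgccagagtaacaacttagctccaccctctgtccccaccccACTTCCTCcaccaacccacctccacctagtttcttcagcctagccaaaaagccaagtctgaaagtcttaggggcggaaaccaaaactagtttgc
Casp1, chr9:5298267-5298566, plus strand: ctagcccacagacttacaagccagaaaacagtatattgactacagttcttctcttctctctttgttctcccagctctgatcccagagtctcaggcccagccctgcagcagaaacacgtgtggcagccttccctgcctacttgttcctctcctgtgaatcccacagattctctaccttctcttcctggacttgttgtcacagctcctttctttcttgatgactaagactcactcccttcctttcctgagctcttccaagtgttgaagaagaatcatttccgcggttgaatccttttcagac
Casp4, chr9:5308599-5308898, plus strand: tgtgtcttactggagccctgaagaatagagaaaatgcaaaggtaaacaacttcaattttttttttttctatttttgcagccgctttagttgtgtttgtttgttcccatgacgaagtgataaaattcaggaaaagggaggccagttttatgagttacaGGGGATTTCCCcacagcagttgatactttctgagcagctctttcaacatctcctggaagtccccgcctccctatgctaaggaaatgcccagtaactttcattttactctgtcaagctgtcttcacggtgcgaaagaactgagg

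The Casp4 window held a pair of overlapping matches to the NF-kB consensus, from 93 bases before the start site (printed as GGGGATTTCCC), and the Casp1 window held no match to any of the 5 motifs. The Pycard window held 1 match to the PU.1 site, on the opposite strand. Of all 32851 windows, 4.51% held the NF-kB consensus, 3.2% the PU.1 site, 8.56% the interferon-stimulated response element core, 8.3% the gamma-activated site and 13.6% the TATA box. Of the windows not printed, that of Aim2 held the PU.1 site, 1 of the 2 windows of Nlrp3 held the NF-kB consensus, and that of Nlrc4 held no match. A match describes the letters of the window and no binding was measured.

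Casp1, the protease on which the canonical inflammasomes converge, was lower in both NASH groups. Its levels in wildtype replicates 1 to 5 were 5.63, 5.66, 5.65, 5.68 and 5.59. In NASH CD11c-negative cells they were 5.49, 5.50, 5.41, 5.52 and 5.56, and in NASH CD11c-positive cells 5.28, 5.25, 5.21, 5.22 and 5.27. The 3 groups did not overlap, in the order wildtype, NASH CD11c-negative, NASH CD11c-positive from high to low. Group means were 5.64 ± 0.034 (SD, n = 5), 5.50 ± 0.052 and 5.25 ± 0.032. Casp1 fell by 0.15 ± 0.029 (SE; adjusted p = 0.000383, limma) from wildtype to NASH CD11c-negative cells. It fell by 0.25 ± 0.029 from those to NASH CD11c-positive cells (adjusted p = 5.86e-06, limma) and by 0.39 ± 0.029, or 1.31-fold, from wildtype to NASH CD11c-positive cells (adjusted p = 1.11e-08, limma). Between the NASH groups 39.5% of all genes did not overlap.

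The level of Casp1 did not pass for a difference between the slides (0.0064 ± 0.0228, adjusted p = 0.835, limma). Within slides 1 and 2 its difference was -0.18 and -0.094 between NASH CD11c-negative and wildtype cells, -0.20 and -0.31 between the NASH groups, and -0.38 and -0.40 between NASH CD11c-positive and wildtype cells. All of these were without overlap, among only 2 or 3 arrays per group on a slide.

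Summed levels of several cell type marker lists moved in the same order as Casp1. The summed level of 14 macrophage markers, in units of the 75th percentile, was 3680 to 4060 on wildtype, 3200 to 3520 on NASH CD11c-negative and 2590 to 2810 on NASH CD11c-positive arrays. That of 8 sinusoidal endothelial markers was 310 to 338, 192 to 203 and 123 to 127, and that of 8 hepatocyte markers was 88.6 to 97.7, 38.9 to 42.4 and 28.7 to 31.4. That of 6 B cell and plasma cell markers was 62.1 to 70.3, 38.7 to 46.1 and 22.7 to 25.5. Of the macrophage markers 7 were lower, 6 higher and 1 not called in NASH CD11c-negative against wildtype cells. Of the endothelial markers 7 were lower and 1 higher, of the hepatocyte markers 6 were lower and 2 not called, and of the B cell and plasma cell markers 5 were lower and 1 not called. In NASH CD11c-positive against wildtype cells 8, 7, 8 and 6 markers of these lists were lower. Of the macrophage markers 4 were higher there and 2 not called, and no endothelial, hepatocyte, B cell or plasma cell marker was higher. The macrophage markers thus did not move together, although their sum fell. No marker of these lists was below background on all arrays of a group. Their part in the fall of Casp1 was not tested.

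Casp4 was measured by 2 probes and was highest in NASH CD11c-negative cells by both. The levels of the brighter probe in wildtype replicates 1 to 5 were 3.82, 3.86, 3.84, 4.02 and 3.97. In NASH CD11c-negative cells they were 4.27, 4.29, 4.19, 4.36 and 4.45, and in NASH CD11c-positive cells 3.89, 3.90, 4.02, 4.05 and 4.03. All NASH CD11c-negative arrays lay above all other arrays, and the wildtype and NASH CD11c-positive ranges overlapped. Means were 3.90 ± 0.089 (SD, n = 5), 4.31 ± 0.097 and 3.98 ± 0.073. Casp4 rose 1.33-fold from wildtype to NASH CD11c-negative cells (0.41 ± 0.054, SE; adjusted p = 6.22e-06, limma). It was 1.26-fold lower in NASH CD11c-positive than in NASH CD11c-negative cells (-0.33 ± 0.054, adjusted p = 0.000119, limma). Between NASH CD11c-positive and wildtype cells it differed by 0.078 ± 0.054, which did not pass (adjusted p = 0.199, limma, 95% interval -0.038 to 0.19). Of all genes 64.1% did not overlap between NASH CD11c-negative and wildtype cells, and 39.5% between the NASH groups.

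The dimmer probe of Casp4 had group means of 3.65 ± 0.031, 4.03 ± 0.076 and 3.73 ± 0.063. Over the 28175 probes its differences were 0.38 ± 0.040 (adjusted p = 8.46e-07, limma), -0.30 ± 0.040 (adjusted p = 2.79e-05, limma) and 0.076 ± 0.040 (adjusted p = 0.106, limma) in the same 3 comparisons. The probes ran together over the 15 arrays (Pearson r = 0.957, a description across arrays that share groups and slides).

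Gsdmd, the pore-forming substrate of both caspases, followed the same order as Casp4 at this scaling, with smaller differences. Its levels, each the mean of 10 spots, were 3.89, 3.87, 3.89, 4.03 and 4.04 in wildtype replicates 1 to 5. They were 4.07, 4.05, 4.02, 4.2 and 4.22 in NASH CD11c-negative cells and 3.90, 3.87, 4.04, 4.02 and 4.03 in NASH CD11c-positive cells. All NASH CD11c-negative arrays but replicate 3 lay above all arrays of the other groups, and replicate 3 lay within their range on slide 2. Means were 3.94 ± 0.083 (SD, n = 5), 4.11 ± 0.092 and 3.97 ± 0.082. The 10 spots had a median SD of 0.038 on an array.

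Gsdmd rose by 0.17 ± 0.053 (SE; adjusted p = 0.00932, limma), or 1.13-fold, from wildtype to NASH CD11c-negative cells, with the opposite sign under quantile normalization (-0.11). It was lower in NASH CD11c-positive than in NASH CD11c-negative cells (-0.14 ± 0.053, adjusted p = 0.0363, limma). That call was lost without the filter on dim probes (adjusted p = 0.0661, limma) and without any 1 of NASH CD11c-negative replicates 4 and 5 and NASH CD11c-positive replicates 1 and 2 (-0.11 to -0.12). NASH CD11c-positive and wildtype cells differed by 0.029 ± 0.053 (adjusted p = 0.636, limma, 95% interval -0.086 to 0.14). Within each slide, with only 2 or 3 arrays per group, NASH CD11c-negative cells stood apart from both other groups. NASH CD11c-negative minus wildtype was 0.165 on slide 1 and 0.179 on slide 2, and NASH CD11c-positive minus NASH CD11c-negative was -0.165 and -0.182, all without overlap, whereas NASH CD11c-positive minus wildtype was 0.001 and -0.003, with overlap on both slides. With slide as a block these differences were 0.17 ± 0.014 (adjusted p = 9.82e-08, limma) and -0.17 ± 0.015 (adjusted p = 2.98e-07, limma).

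For Gsdmd and Nlrc4 the difference between slides was smaller than the largest group difference (0.17 and 0.13) and larger than the other group differences. Slide 2 was higher by 0.15 ± 0.012 for Gsdmd (adjusted p = 2.41e-06, limma) and by 0.12 ± 0.023 for Nlrc4 (adjusted p = 0.000964, limma). For Casp4 it was higher by 0.15 ± 0.019 (adjusted p = 6.29e-05, limma). The differences of NASH CD11c-negative cells from both other groups in Casp4 were larger than that, and the difference between NASH CD11c-positive and wildtype cells (0.078) was smaller. Aim2 and Nlrp3 did not pass. Over all genes 50.7% were called for slide, with a median of 0.064.

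**Figure D2:**
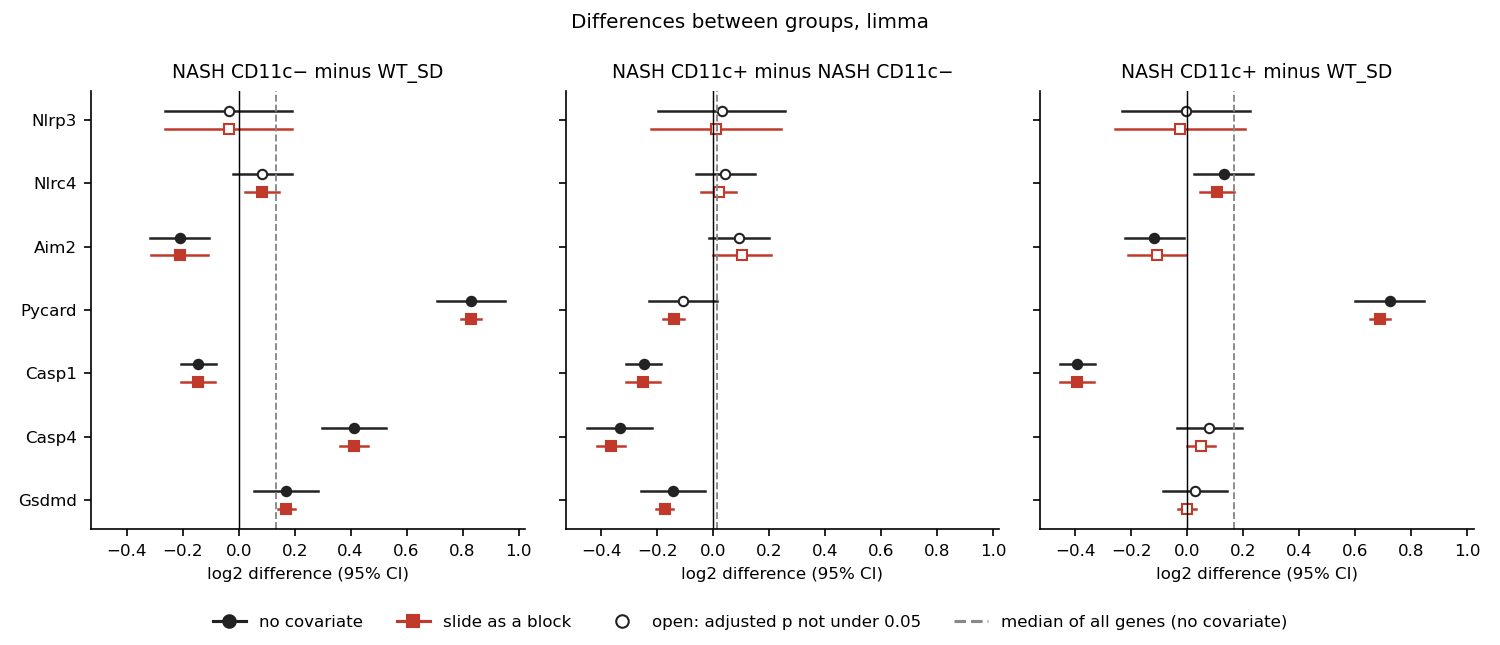
Log2 differences between groups (x axis) of the 7 genes (y axis) in the 3 comparisons, with 95% intervals from limma, without a covariate (black circles) and with slide as a block (red squares). Open symbols did not pass at an adjusted p under 0.05, and dashed lines give the median of all genes. The intervals of Pycard, Casp4 and Gsdmd narrowed with the block, and Nlrc4 in the first, Pycard in the second and Aim2 in the last comparison changed their call.

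The sum of the neutrophil markers moved in the same order as Casp4 and Gsdmd. The summed level of 12 neutrophil markers was 420 to 440 on wildtype, 1670 to 1820 on NASH CD11c-negative and 671 to 704 on NASH CD11c-positive arrays, and no marker was below background on all arrays of a group. Of these 11 rose and 1 fell in NASH CD11c-negative against wildtype cells, and 11 were lower and 1 not called in NASH CD11c-positive against NASH CD11c-negative cells. The sum of 10 monocyte markers was 165 to 182, 267 to 302 and 221 to 242, with 6 higher and 1 lower in the first of these comparisons and 5 higher and 5 lower in the second, so the monocyte markers did not move together there. The sum without Chil3, a gene left out after its values were seen, was 154 to 172, 172 to 198 and 186 to 203. The part of these markers in the levels of Pycard, Casp4 and Gsdmd was not tested.

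Aim2, the sensor of cytosolic DNA, was lower in NASH CD11c-negative cells. Its levels in wildtype replicates 1 to 5 were -0.65, -0.70, -0.56, -0.74 and -0.76. In NASH CD11c-negative cells they were -0.87, -0.88, -0.89, -1.02 and -0.80, and in NASH CD11c-positive cells -0.71, -0.87, -0.83, -0.72 and -0.87. All NASH CD11c-negative arrays lay below all wildtype arrays, and NASH CD11c-positive arrays overlapped with both. Means were -0.68 ± 0.080 (SD, n = 5), -0.89 ± 0.078 and -0.80 ± 0.079. Aim2 fell by 0.21 ± 0.050 (SE), or 1.16-fold, from wildtype to NASH CD11c-negative cells (adjusted p = 0.00135, limma). The difference was -0.12 ± 0.050 between NASH CD11c-positive and wildtype cells (adjusted p = 0.0418, limma), and with slide as a block it did not pass (-0.11 ± 0.048, adjusted p = 0.0522, limma, with 81.5% of all genes called). Without any 1 of wildtype replicates 1, 2 and 3, NASH CD11c-negative replicates 1 and 2 and NASH CD11c-positive replicates 2, 3 and 5 this call was also lost, at -0.087 to -0.12. In all 16 of 28 alternatives lost it. The NASH groups differed by 0.093 ± 0.050 (adjusted p = 0.132, limma, 95% interval -0.014 to 0.20). Between NASH CD11c-negative and wildtype cells 64.1% of all genes did not overlap.

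Sums of T and natural killer cell, B cell (given above) and dendritic cell markers were lower in NASH CD11c-negative than in wildtype cells, as was Aim2. That of 12 T and natural killer cell markers was 46.4 to 48.8 on wildtype, 31.4 to 37.2 on NASH CD11c-negative and 33.7 to 36.6 on NASH CD11c-positive arrays. That of 9 dendritic cell markers was 80.9 to 90.1, 45.3 to 51.1 and 103 to 113, and 1 of these markers was below background on all NASH CD11c-negative arrays. Of the first list 8 were lower and 2 higher in NASH CD11c-negative against wildtype cells, and of the second 8 were lower and none higher. Their part in the level of Aim2 was not tested.

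Nlrp3, a sensor much studied in sterile liver inflammation, was measured by 2 probes that did not run together (r = 0.295 over 15 arrays, as a description). Both were dim, with processed signals of 79.8 to 143.1 units for the brighter and 60.4 to 119.2 units for the other. By the brighter probe the levels in replicates 1 to 5 were -1.93, -2.22, -1.84, -1.89 and -2.03 in wildtype, -1.77, -2.34, -2.10, -1.78 and -2.10 in NASH CD11c-negative and -2.09, -2.05, -2.001, -1.79 and -2.01 in NASH CD11c-positive cells. The 3 ranges overlapped, with means of -1.98 ± 0.15 (SD, n = 5), -2.02 ± 0.24 and -1.99 ± 0.12. The differences were -0.036 ± 0.106 (SE; adjusted p = 0.764, limma) for NASH CD11c-negative and -0.0057 ± 0.106 (adjusted p = 0.963, limma) for NASH CD11c-positive against wildtype cells. Their 95% intervals, -0.26 to 0.19 and -0.23 to 0.22, leave room for changes as large as that of Gsdmd.

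By the dimmer probe Nlrp3 was lower on all NASH arrays than on any wildtype array. The levels were -1.89, -2.15, -2.04, -2.09 and -2.02 in wildtype, -2.37, -2.46, -2.65, -2.30 and -2.54 in NASH CD11c-negative and -2.49, -2.50, -2.35, -2.42 and -2.34 in NASH CD11c-positive cells. The differences from wildtype were -0.42 ± 0.066 (SE; adjusted p = 4.09e-05, limma over 28175 probes) and -0.38 ± 0.066 (adjusted p = 0.000116, limma), and the NASH groups differed by 0.045 ± 0.066 (adjusted p = 0.61, limma). Of all genes 64.1% and 69.3% did not overlap with wildtype in NASH CD11c-negative and NASH CD11c-positive cells. The share of all probes was not computed. Both probes carry the same RefSeq transcript in the files, and which of them stands for the transcript was not tested. The mean of both probes was lower than in wildtype in NASH CD11c-negative (-0.23, adjusted p = 0.0129, limma) and NASH CD11c-positive cells (-0.19, adjusted p = 0.0317, limma).

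Nlrc4, the sensor that works with NAIP proteins, differed little between the groups. Its levels were 0.40, 0.29, 0.40, 0.44 and 0.50 in wildtype replicates 1 to 5, 0.43, 0.46, 0.48, 0.50 and 0.58 in NASH CD11c-negative and 0.43, 0.44, 0.58, 0.61 and 0.63 in NASH CD11c-positive cells. The ranges of the 3 groups overlapped, and on each slide all NASH arrays of both groups lay above the wildtype arrays (2 or 3 arrays per group). Means were 0.41 ± 0.074 (SD, n = 5), 0.49 ± 0.058 and 0.54 ± 0.097. Nlrc4 was higher by 0.13 ± 0.049 (SE) in NASH CD11c-positive than in wildtype cells (adjusted p = 0.0263, limma), a call that was lost without wildtype replicate 2 or any 1 of NASH CD11c-positive replicates 3, 4 and 5 (0.10 to 0.12), under quantile normalization (0.074) and within slide 1 alone (0.066). The difference of NASH CD11c-negative from wildtype cells was 0.085 ± 0.049 (adjusted p = 0.128, limma) and passed with slide as a block (0.085 ± 0.028, adjusted p = 0.0128, limma, with 82.1% of all genes called). The NASH groups differed by 0.044 ± 0.049 (adjusted p = 0.471, limma, 95% interval -0.061 to 0.15).

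How the arrays are scaled to each other decided the sign of some of these differences. The percentile used for scaling itself differed by group, as given above, so the scaling factor went with the group. Under quantile normalization the median difference of all genes against wildtype moved to -0.003 (CD11c-negative) and 0.038 (CD11c-positive). Higher genes then made up 48.5% of the calls instead of 62.9% in the first case, and 53.6% instead of 66.2% in the other. Gsdmd then went from higher to lower in NASH CD11c-negative against wildtype cells (-0.11, adjusted p = 0.00743, limma). In NASH CD11c-positive against wildtype cells Casp4 was then lower (-0.19, adjusted p = 0.000307, limma), as was Gsdmd (-0.24, adjusted p = 1.13e-05, limma). Pycard stayed higher than in wildtype in both NASH groups, Casp4 by 0.12 in NASH CD11c-negative cells, and Casp1 stayed lower in both. Nlrc4 (0.074, adjusted p = 0.141, limma) and Aim2 (-0.069, adjusted p = 0.18, limma) lost their calls in NASH CD11c-positive against wildtype cells. Between the NASH groups Casp1, Casp4 and Gsdmd stayed lower in CD11c-positive cells (-0.20, -0.31 and -0.13). Under normexp background correction Pycard, Casp1 and Casp4 kept all their calls, and Gsdmd between the NASH groups (-0.081, adjusted p = 0.171, limma) and Aim2 against wildtype in NASH CD11c-negative (-0.12, adjusted p = 0.0516, limma) and NASH CD11c-positive cells (-0.080, adjusted p = 0.166, limma) did not pass.

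Set against the median of all genes, the 75th percentile scaling gave 0.70 for Pycard, 0.28 for Casp4, 0.037 for Gsdmd, -0.049 for Nlrc4, -0.17 for Nlrp3 (brighter probe), -0.28 for Casp1 and -0.34 for Aim2 in NASH CD11c-negative against wildtype cells. For NASH CD11c-positive against wildtype cells it gave 0.56 for Pycard, -0.035 for Nlrc4, -0.087 for Casp4, -0.14 for Gsdmd, -0.17 for Nlrp3 (brighter probe), -0.28 for Aim2 and -0.56 for Casp1. On that footing Gsdmd in NASH CD11c-negative cells lay near the median gene. The median of the 7 genes was 0.085, -0.108 and 0.028 in the 3 comparisons, beside 0.134, 0.015 and 0.165 for all genes.

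**Figure D3:**
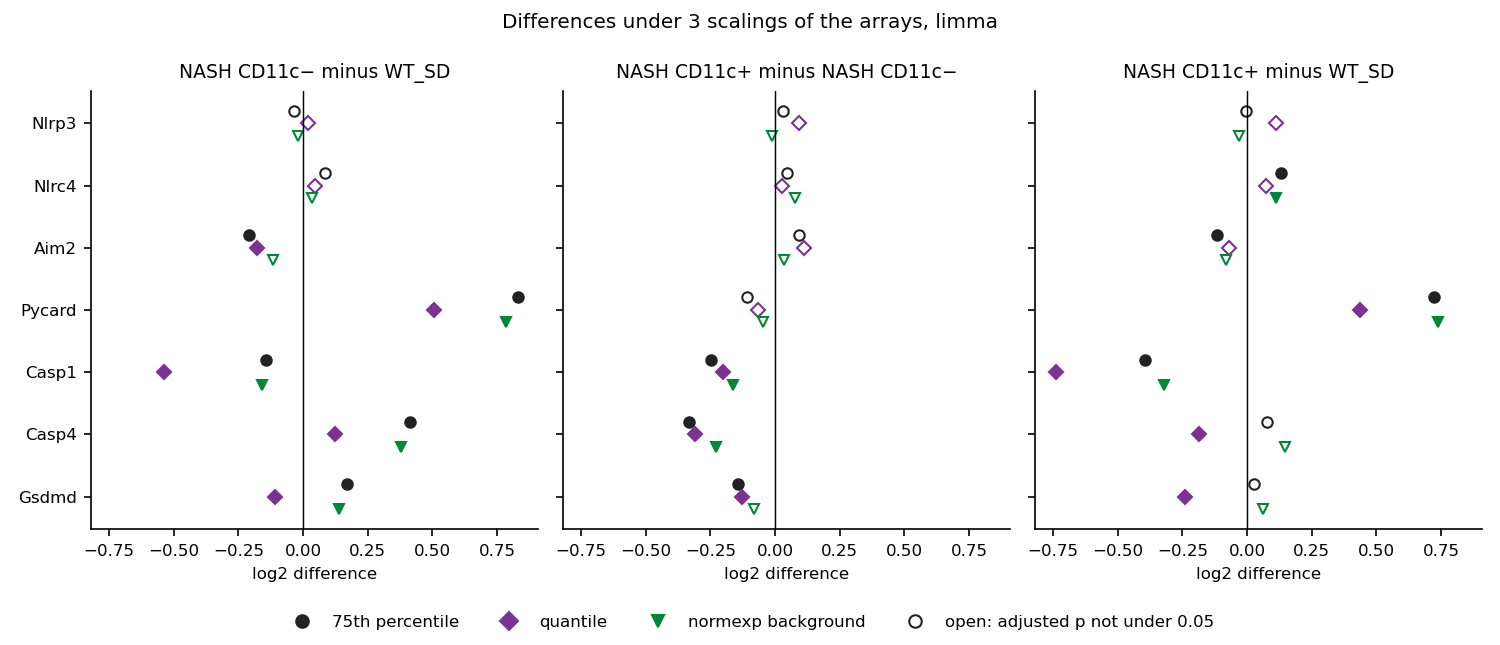
Log2 differences (x axis) of the 7 genes (y axis) in the 3 comparisons, with arrays scaled to the 75th percentile (circles), by quantile normalization (diamonds) or after normexp background correction (triangles). Open symbols did not pass at an adjusted p under 0.05 in limma. The sign of Gsdmd in the first panel and of Casp4 and Gsdmd in the last depended on the scaling. So did that of Nlrp3 by its brighter probe, the only one shown, which did not pass under any of the 3.

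Across the 15 arrays Casp4 and Gsdmd had the highest correlation among the 7 genes (Pearson r = 0.907), followed by Pycard with Casp4 (0.733), and Aim2 had negative ones with Pycard (-0.759) and Casp4 (-0.701). These describe arrays that share groups, slides and scaling. After each group mean was subtracted, r was 0.936 for Casp4 with Gsdmd and 0.944 for Pycard with Gsdmd. After the mean of each group on each slide was subtracted, these were 0.352 and -0.438, so the close agreement of these pairs within groups went with the slide. Casp1 with Casp4 was then the highest of the 7 genes, at 0.758, against 0.319 after group means alone and 0.002 over the 15 arrays.

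For each of the 7 genes the 3 genes with the most similar levels over the 15 arrays were taken from 12980 candidates. For Pycard they were Fdx2, Cd74 and Metrnl (r = 0.997, 0.997 and 0.996), and 1688 genes had an r above 0.95 with it. For Casp1 they were Ppic, Pttg1 and Tnfaip1 (0.985, 0.982 and 0.982), with 161 genes above 0.95. For Casp4 they included Igtp, an interferon-inducible GTPase gene, and Clec4n (0.987 and 0.985), with 65 genes above 0.95. Gsdmd was most like Mcrs1, Zfand2b and Rac2 (0.988, 0.982 and 0.981), with 24. Nlrc4 was nearest to Gas8, Lin37 and Nfic (0.918 to 0.908), Aim2 to Heatr3, Wdr47 and Spag1 (0.858 to 0.853) and Nlrp3 to Trmt10b, Msh5 and Cep78 (0.709 to 0.656), with no gene above 0.95.

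Cytokines of the pathway and their inhibitors were examined on the same arrays. Il1b, the main cytokine cleaved by caspase-1, had mean levels of 6.69 ± 0.026 (SD, n = 5) in wildtype, 7.09 ± 0.052 in NASH CD11c-negative and 6.51 ± 0.029 in NASH CD11c-positive cells, and Il18 had 3.74 ± 0.037, 4.25 ± 0.076 and 3.83 ± 0.024. Both were highest in NASH CD11c-negative cells at the 75th percentile scaling, and both were named after their values were seen. Il1b was higher by 0.39 (adjusted p = 7.14e-09, limma) in NASH CD11c-negative than in wildtype cells but lower under quantile normalization (-0.075, adjusted p = 0.000701, limma), and it was lower in NASH CD11c-positive than in NASH CD11c-negative cells (-0.58). Il18 was higher by 0.51 in NASH CD11c-negative than in wildtype cells (0.23 under quantile normalization) and lower in NASH CD11c-positive than in NASH CD11c-negative cells (-0.42). Il1rn, which encodes the interleukin-1 receptor antagonist, rose by 2.10 ± 0.057 (adjusted p = 1.57e-13, limma) and 2.12 ± 0.057 (adjusted p = 1e-13, limma) in the NASH groups against wildtype. Its levels were -1.45 to -1.16 in wildtype against 0.62 to 0.90 and 0.73 to 0.86.

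**Figure D4:**
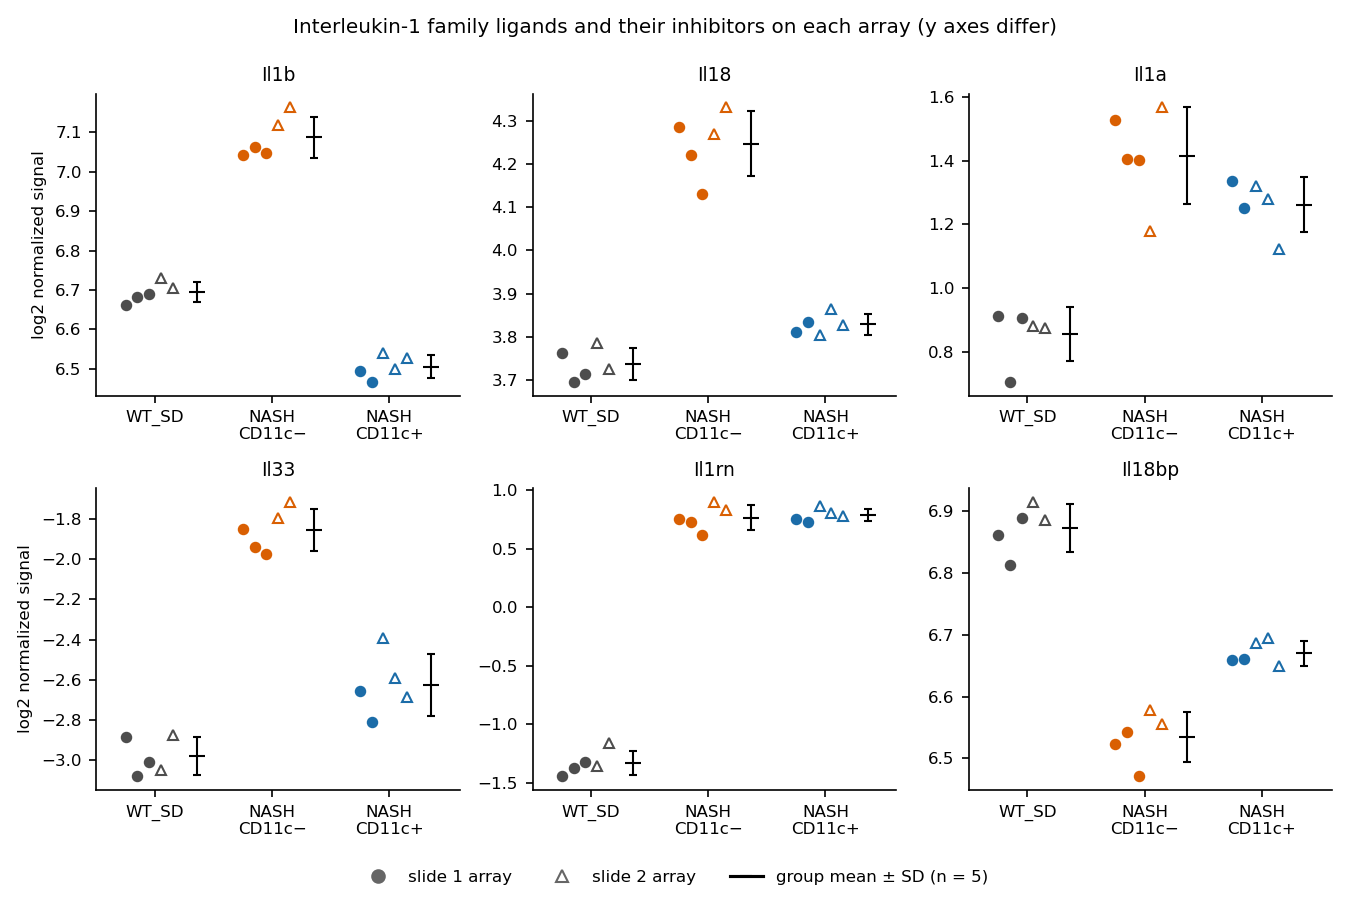
Log2 normalized signal (y axis, scaled separately in each panel) of 4 ligands of the interleukin-1 family, the receptor antagonist Il1rn and the interleukin-18 binding protein Il18bp on the 15 arrays, by group (x axis). Filled circles are arrays of slide 1, open triangles arrays of slide 2, and bars give the group mean ± SD over 5 arrays. Il1b (not under quantile normalization), Il18 and Il33 peaked in NASH CD11c-negative cells, Il1rn was high in both NASH groups, and Il18bp was lowest in NASH CD11c-negative cells.

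Of 87 other genes of the pathway in 7 lists 83 were tested. In NASH CD11c-negative against wildtype cells 47 were higher, 22 lower and 14 not called (median 0.214), or 56.6% and 26.5% beside 48.3% and 28.5% of all genes. Under quantile normalization 32 were higher and 34 lower. In NASH CD11c-positive against NASH CD11c-negative cells 21 were higher and 30 lower (median -0.003), or 25.3% and 36.1% beside 29.9% and 23.2% of all genes. Against wildtype cells 46 were higher and 22 lower (median 0.167), or 55.4% and 26.5% beside 51.4% and 26.3% of all genes, and under quantile normalization 33 were higher and 37 lower. The shares against wildtype thus lay near those of all genes. Genes of priming by Toll-like receptors and NF-kB were higher in NASH CD11c-negative cells in 13 of 15 cases and lower in none (9 higher and 2 lower under quantile normalization), with the largest differences in Tnfaip3, an NF-kB feedback inhibitor, at 1.71 and the lipopolysaccharide co-receptor Cd14 at 1.64. Between the NASH groups 4 were higher and 4 lower, with Nfkbia at -0.50 and Cd14 at -0.47.

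Among 11 other sensors and adaptors 4 rose and 3 fell in NASH CD11c-negative against wildtype cells, where 48.3% of all genes were higher and 28.5% lower. Under quantile normalization 1 rose and 6 fell, where 74.2% of all genes were called, 48.5% of these as higher. The same shares stand beside the counts of the lists below in this comparison. Naip1, a receptor that hands bacterial needle protein to NLRC4, fell by 1.39 ± 0.086 and Nlrp1b fell by 1.17 ± 0.049, while the nucleic acid sensor Zbp1 rose by 0.80 ± 0.023 (0.50 under quantile normalization). In NASH CD11c-positive cells Naip1 was also lower than in wildtype (-1.32) and Naip2 was higher (0.45, or 0.19 under quantile normalization). Of 10 genes for ligands, receptors and inhibitors of the interleukin-1 family 8 rose and 2 fell in NASH CD11c-negative against wildtype cells (7 and 3 under quantile normalization). In NASH CD11c-positive against NASH CD11c-negative cells 2 were higher and 6 lower, beside 29.9% and 23.2% of all genes. Il33, an alarmin, was at 1.13 in the first of these comparisons and at -0.77 in the second, and Il18r1, a dim interleukin-18 receptor chain gene, did the reverse (-0.88 and 0.72). After normexp background correction Il33 was at 0.61 in the first comparison, and Il18r1 was at -0.28 in the first and at 0.16 in the second, where it lost its call (adjusted p = 0.123, limma).

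Of 10 genes for inhibitors of inflammatory caspases and membrane repair 6 rose and 2 fell in NASH CD11c-negative against wildtype cells (3 and 3 under quantile normalization). Serpinb1a, an inhibitor of neutrophil proteases and inflammatory caspases, had the largest difference of any gene in the 7 lists in both comparisons with NASH CD11c-negative cells, rising by 2.41 ± 0.034 there (adjusted p = 1.19e-16, limma) and falling by 1.57 ± 0.034 (adjusted p = 7e-14, limma) from NASH CD11c-negative to NASH CD11c-positive cells. Chmp4b, of the membrane repair machinery, was higher by 0.85 and 0.83 in the NASH groups than in wildtype (0.42 and 0.47 under quantile normalization). Of 16 genes of NLRP3 activation and restraint 8 were higher and 5 lower (6 and 7 under quantile normalization), with Tmem176a at 1.11, Pstpip1 at 0.86 and Txnip, which encodes a binding partner of NLRP3, at -0.41 (-0.80 under quantile normalization). Txnip was at -0.78 in NASH CD11c-positive against wildtype cells.

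Of 11 interferon-inducible helpers of the AIM2 and caspase-11 arms 5 rose and 5 fell in NASH CD11c-negative against wildtype cells (3 and 6 under quantile normalization). Beside this and the next list stand 48.3% of all genes as higher and 28.5% as lower. The guanylate-binding protein genes differed among themselves, with Gbp2 at 0.73 (0.42 under quantile normalization) and Gbp7 at -1.07. In NASH CD11c-positive against wildtype cells Gbp7 was at -1.25, Gbp5 at -0.86 and the transcription factor gene Irf8 at 0.72 (0.35 under quantile normalization). Of 10 other death effectors 3 rose and 5 fell in NASH CD11c-negative against wildtype cells (3 and 7 under quantile normalization), with Gsdme, another gasdermin gene, at 0.84 and the necroptosis kinase gene Ripk3 at -0.71. Gsdme was at -0.39 and the necroptosis effector gene Mlkl at -0.42 in NASH CD11c-positive against NASH CD11c-negative cells.

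**Figure D5:**
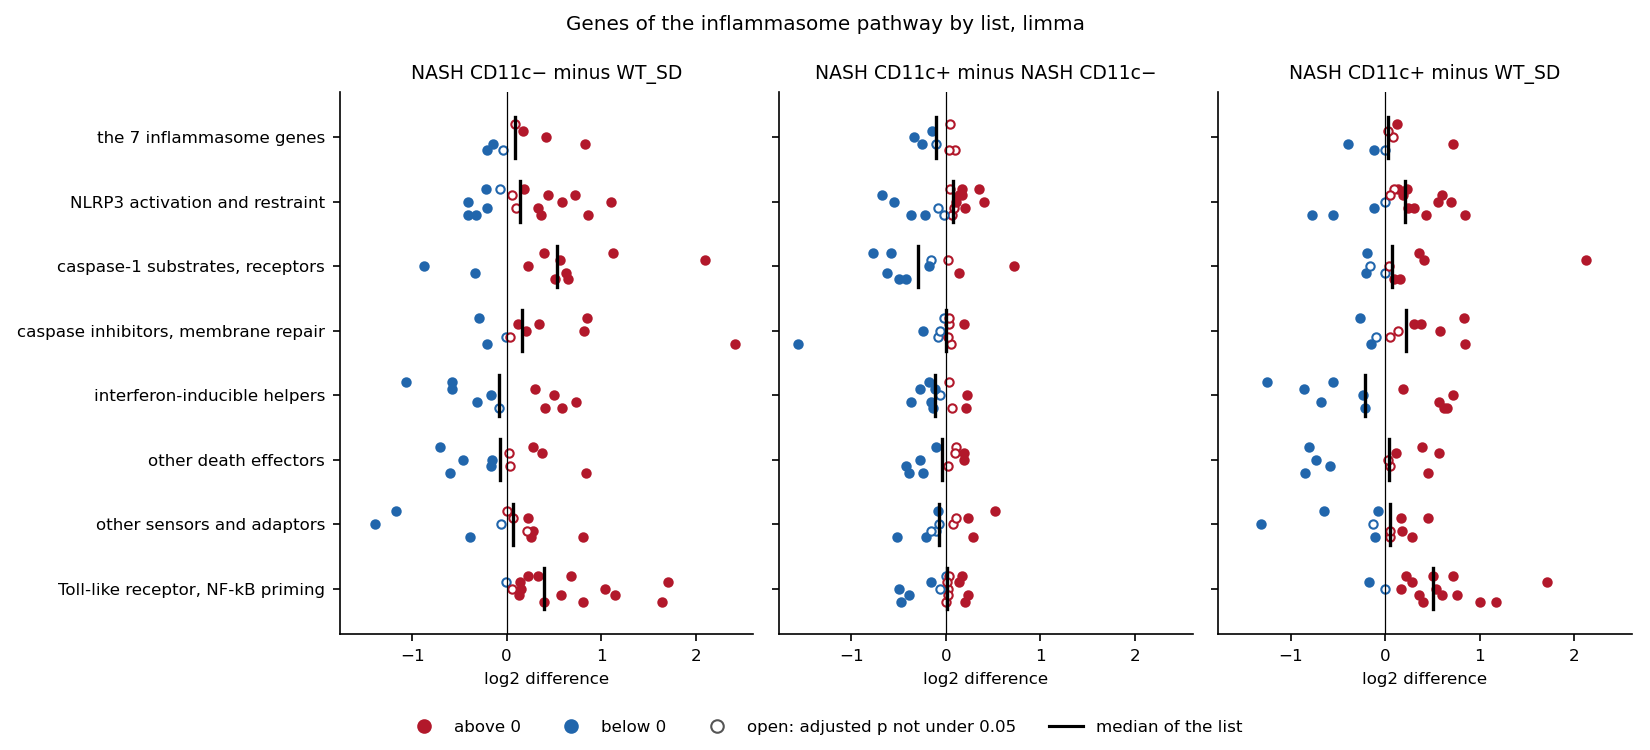
Log2 differences (x axis) of the 7 inflammasome genes and 83 other genes of the pathway by list (y axis) in the 3 comparisons. Red points lie above 0 and blue points below, open points did not pass at an adjusted p under 0.05 in limma, and black bars give the median of the list. The medians of the priming list lay at 0.40 and 0.50 against wildtype in the first and last panels. That of the interleukin-1 family list, labelled caspase-1 substrates, receptors, lay at 0.54 in the first and -0.30 in the second.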

How the data were processed

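Gene expression was measured on 15 one-colour (Cy3) arrays, 5 per group, from 0.1 ug of RNA each. The deposited scanner files give, per the file headers, a background-subtracted processed signal intensity for 62976 spots of each array, with other columns of flags, from Agilent Feature Extraction 10.7.3.1 (also named in the submitters' processing notes). The authors' deposited table holds log2 values, which match the processed signal after scaling to the 75th percentile and centring on the wildtype median (median absolute difference 0.00146), with column medians from -0.204 to 0.408. It was used as an alternative only.

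Control spots (3671) and outlier spots (113 to 190 per array) were left out. Processed signals were put on a log2 scale, repeated spots were averaged, and the 75th percentile over the 55681 probes was subtracted from each array. Probes were named through their accessions with the RefSeq table of GRCm38, 26582 in all. A probe was kept if 4 of the 5 arrays of any group had it well above background (28175 probes), and the brightest one stood for its gene. A limma fit (version 3.58.1 in R 4.3.3, functions lmFit and eBayes) to all 15 arrays gave 2-sided p-values with Benjamini-Hochberg adjustment, and was tested on simulated data. The number of arrays limits the precision.

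The 7 genes, the pathway lists and the cell type markers were chosen with earlier results of these data known. All 7 genes were named in each comparison. Of each other list the 2 largest called differences and the largest opposite one were eligible, with the 3 genes most like each of the 7, and Il1b and Il18 were added. A gene eligible by this rule is not reported here. Alternatives were quantile normalization, normexp, other filters, slide or replicate number as a block, each slide alone, the mean of a gene's probes, another prior, the deposited values, the compared groups alone, and each array left out.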

Additional observations from a re-analysis of the deposited data

How the results depend on the processing

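Of 756 values recomputed under the alternatives, 711 kept their side of the threshold, 31 lost a call, 10 gained one and 4 reversed. Of the 711, 22 changed sign without passing, 18 of them for Nlrp3, 3 for Gsdmd in NASH CD11c-positive against wildtype cells and 1 for Nlrc4 between the NASH groups. The 4 reversals came with quantile normalization, where each passed. They were Gsdmd in NASH CD11c-negative against wildtype cells (-0.11), and in NASH CD11c-positive against wildtype cells Casp4 (-0.19 by the brighter and -0.20 by the dimmer probe) and Gsdmd (-0.24). Pycard and Casp1 against wildtype in NASH CD11c-positive cells, Pycard and Casp4 in NASH CD11c-negative against wildtype cells, and Casp1 and Casp4 between the NASH groups kept their calls in all 28 alternatives. The dimmer probe of Nlrp3 also kept its calls against wildtype in all 28. It lay at -0.465 to -0.22 in NASH CD11c-negative and at -0.46 to -0.26 in NASH CD11c-positive cells. In NASH CD11c-negative against wildtype cells the number of the 7 genes called lower was 3 with quantile normalization and 1 with normexp. It was 0 within slide 2 alone, which holds 2 arrays of each of these groups. In NASH CD11c-positive against wildtype cells the number called higher was 1 with quantile normalization and within slide 1 alone, and 1 to 2 when an array was left out. There the number called lower was 3 with quantile normalization. It was 1 with normexp, without the filter on dim probes, with slide as a block, within slide 2 alone, with the trended and robust prior, and 1 to 2 when an array was left out. Nothing in the labels ties samples of the same replicate number, so the numbers were not taken as pairing. Such samples correlated at -0.198 to 0.373 in their deviations from group means, with 11 of 15 pairs over 0.1. Of 15 samples 9 correlated best with one of their own number. On the same slide the median r was 0.236 for the same number (13 pairs) and 0.176 for different numbers (24 pairs). The 2 same-number pairs across slides were at -0.198 and -0.171. Whether the numbers mark pairs cannot be told from this. With the replicate number as a block 1 gene was called lower in NASH CD11c-positive against wildtype cells, with or without slide, Nlrc4 in NASH CD11c-negative against wildtype cells passed (0.085, adjusted p = 0.0172, limma), and Pycard passed between the NASH groups (-0.11, adjusted p = 0.00671, limma). The cause of these changes was not tested. The dim probes of Nlrp3 limit what can be said of it.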
